A study of Rattus norvegicus with 18 samples.

Results

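The 10 genes described here encode the insulin-like growth factor (IGF) system as measured in rat hindlimb muscle. They comprise the ligands Igf1 and Igf2, the receptors Igf1r and Igf2r, and the binding proteins Igfbp2, Igfbp3, Igfbp4, Igfbp5, Igfbp6 and Igfbp7. They were picked by gene symbol, each symbol had 1 entry, and together they are 10 of the 30560 entries of the deposited tables. The tissue was the tibialis anterior, a muscle of mostly fast fibres at the front of the lower leg, cut as frozen sections, and its RNA gave 18 sequencing libraries. At 9 months of age the groups were wild-type (WT) rats with 3 libraries, DMD rats with 3, and p16-null DMD rats with 6. WT rats of 3 months and of 18 months gave 3 libraries each. DMD rats are a dystrophin-deficient model of Duchenne muscular dystrophy, and the p16-null group carries, per its label, the DMD genotype together with loss of p16, a cell cycle inhibitor made from Cdkn2a. The labels describe neither edit further and name no drug or other agent for any group. Whether each library stands for its own rat is not stated, so p-values below rest on library-to-library spread, part of which can be technical.

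IGF1 and IGF2 are secreted growth factors that act mainly through the IGF1 receptor, a tyrosine kinase that drives PI3K-AKT-mTOR and RAS signalling, protein synthesis and myoblast growth and differentiation. The IGF2 receptor, also known as the cation-independent mannose 6-phosphate receptor, carries IGF2 and lysosomal enzymes to lysosomes and does not pass on the growth signal. The binding proteins hold the ligands outside the cell, lengthen their life and limit or aid their access to the receptor. In skeletal muscle both ligands are made locally during regeneration, and Igf2 is an imprinted gene that lies beside H19.

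Libraries held 9.61 M to 21.99 M estimated counts, and entries without a gene symbol took 3.64 to 17.6% of them. Dmd, the dystrophin gene, stood at 140 ± 26.9 CPM (TMM-normalised counts on a common scale, SD, n = 3) in WT muscle at 9 months. It stood lower in both dystrophic groups, at 36.9 ± 6.65 in DMD and 42.5 ± 8.33 (n = 6) in p16-null DMD muscle. Its mean TPM (a level scaled to transcript length and to a common total) was 14.6, 8.92 and 9.16 in this order. WT muscle of 3 months had 10.7 TPM. Genes of mature fibres fell as well in DMD muscle, from 0.248 of WT for Ckm to 0.572 for Ttn. A lower Dmd level therefore does not check the genotype labels. Cdkn2a counts cannot check the p16 label, because a gene-level count pools its p16 and Arf transcripts. In CPM they gave 14.2 ± 4.56 for DMD and 12.3 ± 1.69 for p16-null DMD libraries. All mature fibre markers with an entry (6 of 8, such as Ckm and Acta1) were detected in every group, as the tissue label calls for. Their summed TPM was 74063 to 88738 in WT, 38617 to 50268 in DMD libraries and 34624 to 61604 in those of p16-null DMD, all at 9 months. The 8 markers of fibroblasts and fibro-adipogenic progenitors summed to 945 to 1074, 2931 to 5466 and 3632 to 6070 TPM in the same order, and 8 of 8 were called higher in DMD than in WT muscle. The 8 macrophage markers summed to 278 to 350, 3282 to 5674 and 2397 to 6828 TPM, again with 8 of 8 higher in DMD. The 7 markers of regenerating fibres summed to 46.3 to 89.0, 611 to 957 and 649 to 1296 TPM. Of these, 5 of 7 were called higher in DMD and 7 of 7 in p16-null DMD muscle. The 5 adipocyte markers summed to 58.3 to 105, 1936 to 2250 and 304 to 2989 TPM, with 5 of 5 called higher in both dystrophic groups and a wide spread between p16-null DMD libraries. Other lists gave fewer calls in DMD against WT muscle. There, 3 of 6 satellite cell markers and 2 of 6 of smooth muscle and pericytes were higher. Of 6 endothelial markers 0 were higher and 1 was lower. Over all genes tested in that comparison, 26.4% were called higher and 21.8% lower. No marker of these lists was at 0 over a whole group. In bulk RNA, fewer cells of a type and less RNA per cell cannot be told apart, and the part of cell make-up in the IGF results below was not tested.

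Transcripts of the binding proteins outnumbered those of the ligands in every library. Compared per transcript length, the order in WT muscle at 9 months was led by Igfbp7 at 169 ± 16.8 TPM (SD, n = 3), followed by Igfbp6 at 104 ± 17.6 and Igfbp5 at 94.4 ± 18.3. Igfbp6 and Igfbp5 overlapped between libraries. Next came Igfbp4 at 25.2 ± 6.22, Igfbp3 at 17.8 ± 1.92, Igf2r at 16.2 ± 1.34, Igf1 at 15.3 ± 5.43 and Igf2 at 9.89 ± 1.65 TPM. Neighbours among Igfbp4, Igfbp3, Igf2r and Igf1 lay within each other's spread. The signalling receptor Igf1r was scarce, at 1.08 ± 0.411 TPM, and Igfbp2 was barely detected, at 0.243 ± 0.110 TPM. In DMD muscle Igfbp7 (653 ± 133 TPM) and Igfbp6 (582 ± 77.2 TPM) still led, and Igfbp4 (216 ± 13.2 TPM) stood level with Igfbp5 (204 ± 91.7 TPM). The order in p16-null DMD muscle ran Igfbp7, Igfbp6, Igfbp5, Igfbp4, Igf2 and Igf1, and the 2 ligands differed there by less than their spread (93.6 ± 46.5 and 83.6 ± 29.6 TPM, n = 6). In WT muscle of 18 months Igfbp5 came first, at 334 ± 74.1 TPM, and its libraries overlapped those of Igfbp7 at 298 ± 20.9 TPM.

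**Figure D1:**
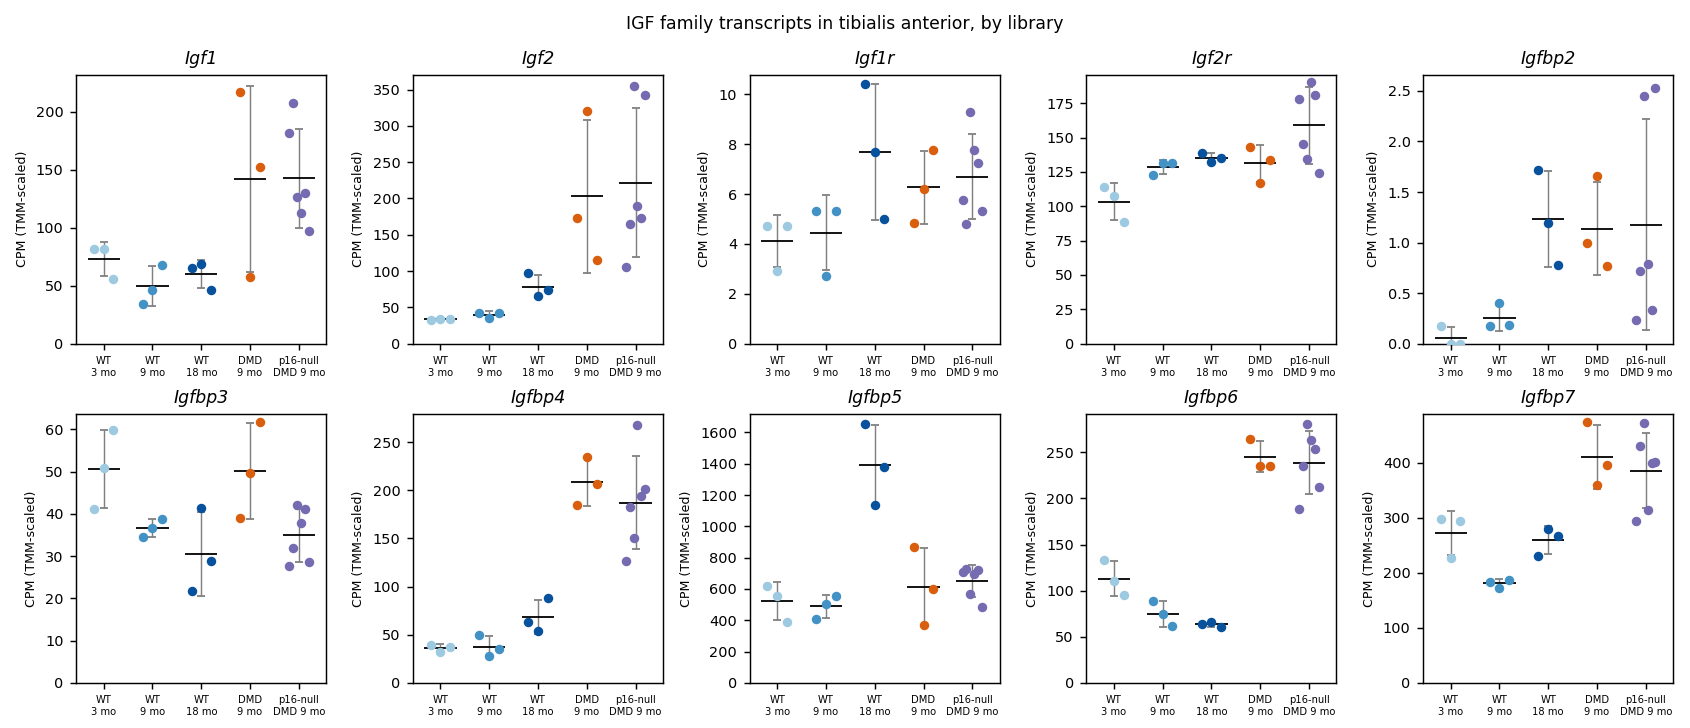
Level of each of the 10 IGF genes in every library, as CPM after TMM scaling (y axis from 0), with 1 panel per gene, 1 point per library, and a line at the mean with a bar of 1 SD for each of the 5 groups. Igf2, Igfbp4, Igfbp6 and Igfbp7 lie higher in every DMD and p16-null DMD library than in every WT library of 9 months, and Igfbp5 is highest in WT muscle of 18 months.

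The promoters of 4 binding protein genes are shown because 3 of them, Igfbp4, Igfbp6 and Igfbp7, were higher together in both dystrophic groups. Igfbp5, with no such call, was higher in old WT muscle, as was Igfbp4. Each line is the 120 bases just upstream of the RefSeq transcription start, 5′ to 3′ on the gene's strand, from the GRCr8 assembly. This build differs from mRatBN7.2, which the submitters used, and all 10 genes matched a RefSeq entry. Capitals mark matches on either strand to the searched motifs, which were the TATA box TATAAA, the GC box GGGCGG, the E-boxes CAGCTG and, as another form, CACGTG, and the CCAAT box.
Igfbp4, chr10:84491351-84491470, plus strand: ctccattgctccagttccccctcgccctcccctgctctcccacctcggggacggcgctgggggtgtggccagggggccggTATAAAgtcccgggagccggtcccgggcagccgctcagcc
Igfbp6, chr7:135154799-135154918, plus strand: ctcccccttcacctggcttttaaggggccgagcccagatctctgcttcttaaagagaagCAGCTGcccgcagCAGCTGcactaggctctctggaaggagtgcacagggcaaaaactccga
Igfbp7, chr14:31091616-31091735, plus strand: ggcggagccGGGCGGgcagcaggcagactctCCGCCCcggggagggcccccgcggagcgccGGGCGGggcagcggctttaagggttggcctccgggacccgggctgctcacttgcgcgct
Igfbp5, chr9:81914188-81914307, minus strand: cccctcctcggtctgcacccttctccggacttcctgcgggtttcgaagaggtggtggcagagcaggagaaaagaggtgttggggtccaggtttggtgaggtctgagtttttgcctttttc

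In Igfbp4 a TATAAA begins 40 bases upstream of the start, and 12.9% of all 33469 rat promoter windows of 250 bases hold that motif. Igfbp6 holds CAGCTG 2 times, the E-box form that myogenic factors can bind, which occurs in 12% of windows. Igfbp7 holds GGGCGG 4 times within 250 bases, a motif of Sp1-type factors found in 30.5% of windows, and its window is 74.4% G and C against a median of 51.2%. None of the 5 motifs occurs in the 250 bases of Igfbp5. CACGTG is present in 5.59% and CCAAT in 34% of windows, and neither occurs in these 4 genes. A match is a string of letters in this window and was not tested for binding.

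DMD against WT muscle at 9 months asks how the dystrophic muscle differs from the healthy one of the same age. Igf2 transcripts were 5.10-fold higher, Igf1 transcripts 2.89-fold, and the binding protein genes Igfbp4, Igfbp6 and Igfbp7 rose with them, while neither receptor passed the test. In all, 5 of the 10 genes were called higher and 0 lower by edgeR's quasi-likelihood test at an adjusted p under 0.05. Among all 14801 genes tested, 26.4% were called higher and 21.8% lower. The median log2 fold change over the 10 genes was 1.36, against 0.11 over all genes tested. With 6 genes the DMD libraries all lay above the WT libraries, which held for 30.7% of all genes. These counts use TMM scaling, which assumes that most genes do not change. Scaled by library totals instead, the median over all genes moved from 0.11 to 0.76, all 10 IGF genes were called higher, and over all genes 7691 were called higher and 1240 lower in place of 3914 and 3228.

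Igf1, the growth factor through which growth hormone acts on muscle, stood at 34.3, 46.5 and 68.1 CPM in the WT libraries and at 217, 57.7 and 152 CPM in the DMD libraries. DMD replicate 2 fell inside the WT range, and the other DMD libraries lay above it. The log2 fold change was 1.53 ± 0.40 (SE, edgeR adjusted p = 0.0055), and 1.91 (adjusted p = 0.000309) without DMD replicate 2. Leaving out any 1 of the 12 libraries gave adjusted p-values of 0.000309 to 0.0361.

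Igf2, the fetal growth factor, was steady in WT muscle, at 42.4, 34.6 and 42.7 CPM. In DMD muscle it reached 174, 320 and 115 CPM, so the groups were far apart, and the DMD libraries also differed widely among themselves. The log2 fold change was 2.35 ± 0.44 (adjusted p = 0.000482). Without DMD replicate 2, the highest library, it was 1.87 (adjusted p = 0.00229). Annotated transcripts of Mir483 and of an unnamed locus overlap Igf2 in GRCr8, and since the strand setting of the counting is not given in the sources used here, their reads cannot be told apart from those of Igf2. Igf1r, Igf2r, Igfbp4 and Igfbp7 have overlapping annotations too.

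The receptors changed little on this scale. Igf1r stood at 5.30, 2.7 and 5.33 CPM in WT and 4.83, 6.19 and 7.77 CPM in DMD libraries, with overlapping groups and a log2 difference of 0.48 ± 0.33 (adjusted p = 0.244). Igf2r stood at 123, 132 and 132 CPM in WT and 143, 117 and 134 CPM in DMD libraries. Its log2 difference was 0.04 ± 0.17 (adjusted p = 0.879), the smallest of the 10 genes. Scaled by library totals, both receptors were called higher, Igf1r by 1.13 (adjusted p = 0.00841) and Igf2r by 0.68 (adjusted p = 0.00229), the latter below the all-gene median of 0.76.

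Among the binding proteins Igfbp4, an inhibitory binding protein that is cleaved by pappalysins, changed most. It went from 49.7, 27.6 and 35.5 CPM in WT to 184, 234 and 207 CPM in DMD libraries. The lowest DMD library was thus far above the highest WT library, and the log2 fold change was 2.47 ± 0.26 (adjusted p = 5.95e-06). Igfbp6, which prefers IGF2 over IGF1 as its ligand, stood at 88.7, 74.2 and 61.3 CPM in WT and at 265, 235 and 236 CPM in DMD libraries. All 3 DMD libraries were close to each other and above WT, with a log2 fold change of 1.72 ± 0.18 (adjusted p = 6.05e-06). Igfbp7, a weak binder of IGFs that is secreted into vessel walls and matrix, stood at 183, 173 and 188 CPM in WT and at 474, 360 and 397 CPM in DMD libraries. The groups did not overlap, and the log2 fold change was 1.19 ± 0.20 (adjusted p = 0.00018).

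The other binding protein genes gave no call. Igfbp3, the main carrier of IGFs in blood, stood at 34.5, 36.6 and 38.7 CPM in WT and at 39.0, 49.6 and 61.7 CPM in DMD libraries. Every DMD library was above every WT library, yet the log2 difference of 0.46 ± 0.19 missed the threshold (adjusted p = 0.0655, and 0.0262 without DMD replicate 1). Igfbp5, a binding protein of muscle, bone and matrix, stood at 410, 506 and 555.5 CPM in WT and at 867, 373 and 598 CPM in DMD libraries. DMD replicate 2 was below all WT libraries, and the log2 difference was 0.33 ± 0.26 (adjusted p = 0.305). It was 0.59 (adjusted p = 0.0418) without DMD replicate 2 and -0.02 without DMD replicate 1, so single libraries decide this value. Igfbp2, a binding protein of fetal tissues, had only 2, 3 and 2 counts in the WT libraries and 14, 31 and 12 in the DMD libraries. Pooled over the libraries of a group and scaled, its counts in DMD were 5.0 times those in WT (95% exact interval 2.28 to 13, counting error only). The log2 difference of 2.21 ± 0.97 missed the threshold (edgeR adjusted p = 0.0722).

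**Figure D2:**
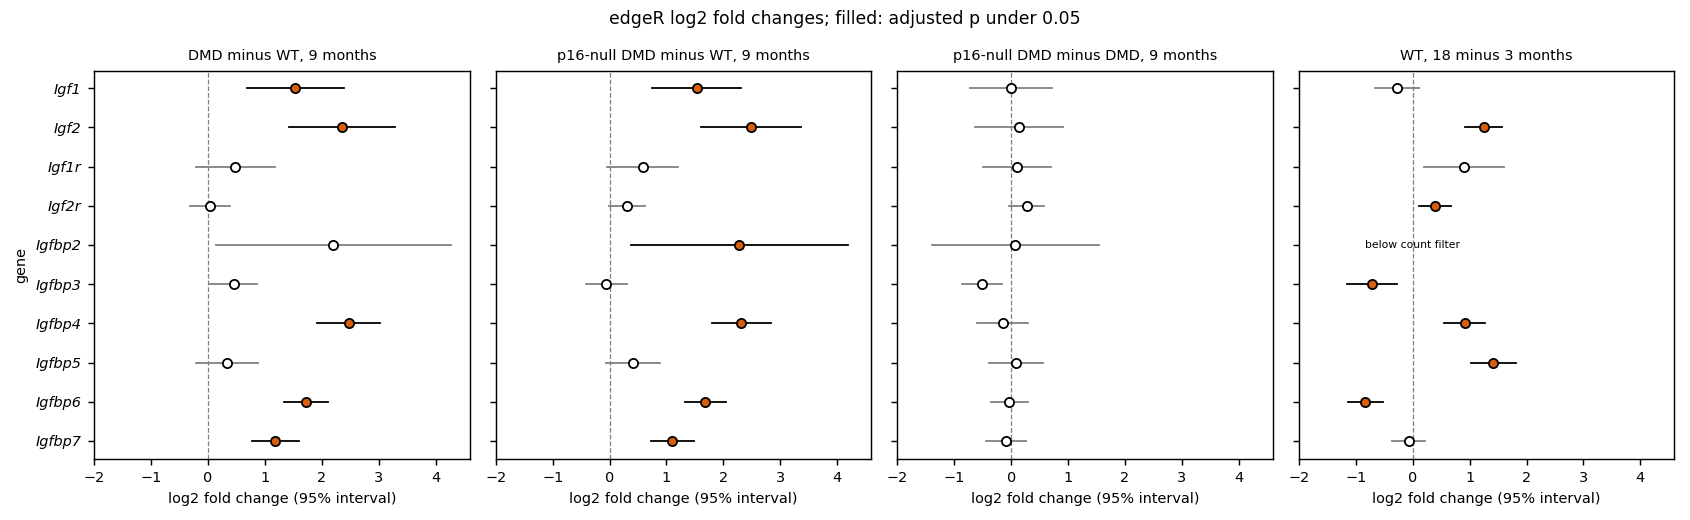
Log2 fold change of each of the 10 IGF genes in the 4 comparisons, as points with 95% confidence intervals from the edgeR fit, filled where the adjusted p was under 0.05. DMD and p16-null DMD muscle show like values against the same WT libraries, led by Igfbp4 and Igf2, and all intervals of p16-null DMD against DMD except that of Igfbp3 span 0.

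P16-null DMD against WT muscle used the same 3 WT libraries as the comparison above, so the 2 sets of values are not independent. Of the 10 genes 6 were called higher and 0 lower, where 27.5% of all genes were called higher and 22.7% lower. With 5 genes the groups did not overlap and p16-null DMD was higher, which held for 23.8% of all genes. The median log2 fold change was 1.31 over the 10 genes and 0.11 over all. Scaled by library totals, all 10 genes were called higher and the all-gene median moved to 0.72.

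Igf1 ranged from 97.4 CPM over a median of 128 to 208 CPM in the 6 p16-null DMD libraries, all above the highest WT library. Its log2 fold change against WT was 1.53 ± 0.37 (edgeR adjusted p = 0.00281). Igf2 ranged from 105 over 182 to 355 CPM. The groups stood apart here as well, with a log2 fold change of 2.49 ± 0.41 (adjusted p = 0.000159). Igf1r ranged from 4.80 over 6.50 to 9.30 CPM and overlapped with WT (0.58 ± 0.29, adjusted p = 0.11). Igf2r ranged from 124 over 162 to 191 CPM and also overlapped with WT. Its log2 difference of 0.31 ± 0.15 missed the threshold (adjusted p = 0.0922) and passed it without p16-null DMD replicate 6 (0.37, adjusted p = 0.0406).

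Igfbp4 ranged from 127 over 189 to 267 CPM in p16-null DMD libraries, with a log2 fold change of 2.32 ± 0.24 against WT (adjusted p = 3.52e-06). Igfbp6 ranged from 189 over 244 to 281 CPM (1.68 ± 0.17, adjusted p = 2.4e-06). Igfbp7 ranged from 295 over 401 to 473 CPM (1.10 ± 0.18, adjusted p = 0.00012). In all 3 of these genes the lowest p16-null DMD library was above the highest WT library. Igfbp5, at 486 over 701 to 729 CPM, overlapped with WT (0.41 ± 0.23, adjusted p = 0.142). Igfbp3, at 27.7 over 34.9 to 42.1 CPM, did so too (-0.06 ± 0.17, adjusted p = 0.789), but scaled by library totals it was called higher, by 0.54 (adjusted p = 0.017), still below the all-gene median of 0.72.

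Igfbp2 passed the threshold in p16-null DMD muscle on few counts. The libraries held 3, 10, 43, 18, 4 and 39 counts, and the log2 fold change against WT was 2.28 ± 0.90 (adjusted p = 0.0457). Replicates 3 and 6 stood above the rest, and the lowest libraries overlapped with WT. The call was lost without p16-null DMD replicate 3 (adjusted p = 0.0865) or 6 (adjusted p = 0.0848). It was also lost when any 1 of the WT or DMD libraries was left out, with adjusted p-values of 0.0534 to 0.142 over all 8 of these fits. The pooled and scaled counts were 5.26 times those in WT (95% exact interval 2.47 to 13.4, counting error only).

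P16-null DMD against DMD muscle asks what the loss of p16 changes within dystrophic muscle. None of the 10 genes passed (adjusted p = 0.686 to 0.999, edgeR), and over all 14801 genes 1 was called, or 0.00676%. At an unadjusted p under 0.05, 1 of the 10 genes and 764 of all genes (5.16%) passed, and DESeq2 called 15 genes in all. Without DMD replicate 1, edgeR called 85 genes, 80 of them lower in p16-null DMD muscle, and none of the 10. The median log2 difference was 0.03 over the 10 genes and 0.02 over all.

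For the ligands, the difference was -0.00 for Igf1 (95% interval -0.72 to 0.71) and 0.14 for Igf2 (-0.63 to 0.90) so a change of either sign remains within the error for both. The receptors gave 0.10 for Igf1r (-0.49 to 0.69) and 0.27 for Igf2r (-0.04 to 0.58). The abundant binding proteins gave -0.15 for Igfbp4 (-0.60 to 0.30), 0.08 for Igfbp5 (-0.39 to 0.55), -0.04 for Igfbp6 (-0.36 to 0.29) and -0.09 for Igfbp7 (-0.44 to 0.27). Igfbp2 was too scarce to bound well (0.07, -1.40 to 1.54). Igfbp3 was the 1 gene with an interval short of 0, at -0.52 ± 0.16 (-0.87 to -0.17). Its libraries overlapped, its unadjusted p was 0.00672, and it failed the correction over all genes (adjusted p = 0.686).

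WT muscle of 18 against 3 months asks how the healthy muscle changes with age. Igfbp5, Igf2, Igfbp4 and Igf2r were higher in the old muscle, and Igfbp6 and Igfbp3 were lower, so the binding protein genes moved in both directions. Of 9 genes tested 4 were called higher and 2 lower, where 9.31% of all 13487 genes were called higher and 10.1% lower. The all-gene count of 2622 behind these shares was 1696 without old replicate 1 and 1742 in 1 fit of all 18 libraries. With 5 genes the old libraries were all above the young ones, and with 1 gene all below, which held for 17.7% and 18.4% of all genes. The median log2 fold change was 0.39 over the 9 genes and 0.00 over all, and library totals moved the latter to 0.24. The genes of regenerating fibres (7 of 7 higher) and macrophages (8 of 8 higher) were also called in old muscle, at 661 to 768 against 57.7 to 72.1 TPM and 629 to 905 against 255 to 443 TPM summed. Of the 8 fibroblast genes 1 was higher and 4 were lower. The part of these cells in the IGF values was not tested.

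Igfbp5 stood at 622, 556 and 390 CPM in young and at 1655, 1139 and 1382 CPM in old libraries. The old libraries all exceeded the young ones, with a log2 fold change of 1.42 ± 0.18 (edgeR adjusted p = 9.26e-05). Igf2 stood at 32.2, 33.8 and 33.7 CPM in young and at 96.6, 65.3 and 73.3 CPM in old libraries. This gap was also complete, at 1.25 ± 0.15 (adjusted p = 5.33e-05), and the lowest DMD library of 9 months (115 CPM) lay above the highest old WT library. Igfbp4 stood at 39.7, 32.5 and 37.5 CPM in young and at 63.2, 54.3 and 88.2 CPM in old libraries (0.91 ± 0.17, adjusted p = 0.0016). Igf1, in contrast, gave no call, at 81.1, 81.4 and 55.9 CPM in young and 65.4, 68.8 and 45.8 CPM in old libraries (-0.27 ± 0.18, adjusted p = 0.324).

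Igfbp6 was lower in old muscle, at 134, 110 and 95.8 CPM in young and 63.5, 65.6 and 61.1 CPM in old libraries. The groups did not overlap, and the log2 fold change was -0.83 ± 0.14 (adjusted p = 0.000823). On log2 TPM with a pseudocount of 1 the value was -0.48 and missed the threshold (adjusted p = 0.0584). Igfbp3 stood at 41.3, 50.8 and 59.9 CPM in young and 21.7, 41.3 and 28.8 CPM in old libraries, where the highest old and the lowest young library met. Its log2 fold change of -0.72 ± 0.20 (adjusted p = 0.022) was called, and this call was lost without young replicate 2 or 3 or old replicate 1 or 3 (adjusted p = 0.0571 to 0.105) and under library totals (-0.48, adjusted p = 0.0876).

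The receptors leaned upward with age. Igf2r stood at 114, 107 and 88.8 CPM in young and 139, 132 and 135 CPM in old libraries, without overlap (0.39 ± 0.13, adjusted p = 0.0448). This call was lost without young replicate 2 or 3 or any old library (adjusted p = 0.0866 to 0.137). Igf1r stood at 4.70, 2.92 and 4.73 CPM in young and 10.4, 7.68 and 4.98 CPM in old libraries. The old libraries were higher without overlap, yet the difference of 0.90 ± 0.33 missed the threshold (adjusted p = 0.0706), which it passed without old replicate 3 (adjusted p = 0.0353) and under library totals (1.15, adjusted p = 0.0227). Igfbp7 did not differ beyond its spread, at 297, 227 and 294 CPM in young and 230, 279.5 and 267 CPM in old libraries (-0.07 ± 0.14, adjusted p = 0.777).

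Igfbp2 was too low in these 6 libraries to enter the test. Young muscle had 2, 0 and 0 counts and old muscle 19, 12 and 9. The ratio of pooled and scaled counts, old over young, was 19.6 (95% exact interval 5.09 to 168, counting error only). WT muscle of 9 months belongs to no test of age, since the study set it against the dystrophic groups. Its Igf2 (34.6 to 42.7 CPM) and Igfbp5 (410 to 555.5 CPM) lay below every library of 18 months, and its Igfbp7 (173 to 188 CPM) lay below every library of both other ages.

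The balance between the genes was described as shares of TPM, with no test. Igf2 made up 40.1 ± 5.52% of ligand TPM (SD, n = 3) in WT muscle of 9 months, 48.7 ± 22.1% in DMD muscle and 51.5 ± 16.7% (n = 6) in the p16-null group. The dystrophic libraries thus varied far more than the WT libraries around like means. WT muscle gave 27.3 ± 3.66% at 3 months and 49.8 ± 10.4% at 18 months. Igf2 took the larger part in WT replicates 1 (55.5%) and 3 (56.2%) of 18 months. It also did so in 4 dystrophic libraries, DMD replicate 2 (74.2%) and p16-null DMD replicates 3 (68.8%), 4 (56.7%) and 6 (69.4%). All of these dystrophic libraries but p16-null DMD replicate 4 had the highest or second-highest values of their group for Igf2, Igfbp2 and H19. H19 stood at 6920 CPM in DMD replicate 2, against 3691 and 2897 CPM in the other DMD libraries. It stood at 6991 and 7345 CPM in p16-null DMD replicates 3 and 6, against 3319 to 4073 CPM in the other 4. DMD replicate 2 and p16-null DMD replicate 6 also had the lowest Igf1 and Igfbp5 CPM of their groups, though by TPM the lowest p16-null Igf1 was that of replicate 4.

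Summed TPM of the 6 binding protein genes was 377 to 436 in WT libraries of 9 months, 1371 to 1942 in DMD libraries and 1329 to 1905 in those of p16-null DMD. Ligand TPM per 100 TPM of binding proteins was 5.28 to 7.53 in WT, 8.29 to 12 in DMD libraries and 8.41 to 13.3 in those of p16-null DMD. The dystrophic libraries all lay above the WT libraries of 9 months in this ratio. Within the binding proteins Igfbp5 made up 23.0 ± 3.96% in WT of 9 months, 11.6 ± 3.54% in DMD muscle and 13.2 ± 2.76% in the p16-null group, and 17.9 ± 3.51% and 40.9 ± 6.27% in WT of 3 and 18 months. Igfbp4 took 6.11% of the sum in WT of 9 months, 13% in DMD muscle and 12.1% in the p16-null group, as group means. Igfbp6 took 25.4%, 34.4% and 35.2% in the same order, and 28.4% and 13.5% in WT of 3 and 18 months. The old WT muscle, with the Igfbp5 share up and the Igfbp6 share down, and the dystrophic muscle, with the reverse, therefore had different mixtures of binding protein transcripts.

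**Figure D3:**
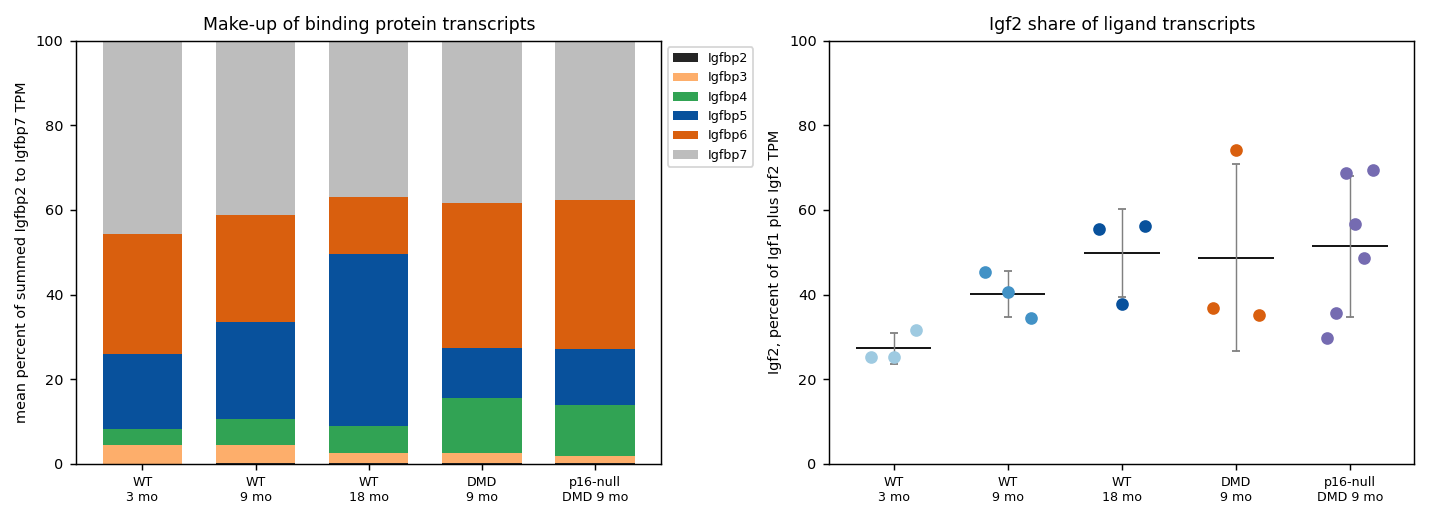
Shares within the IGF system per group, from deposited TPM. Stacked bars give each binding protein gene as a mean percent of the Igfbp2 to Igfbp7 sum, where Igfbp5 makes up 40.9% in WT of 18 months and 11.6% in DMD muscle, and the other panel gives the Igf2 percent of Igf1 plus Igf2 TPM, 1 point per library with the mean and a bar of 1 SD.

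For each gene the genes with the most similar pattern were sought among 12866 genes over the 18 libraries. The measure was the root mean square difference of centred log2 CPM, where 0 is an identical pattern. Igf2 was nearest to Slc4a3 (0.389), H19 (0.415), its imprinted neighbour, and Ttc9 (0.432). Igf1 was nearest to Selenop (0.291), the gene of a selenium carrier, Tent5a (0.293) and Glb1l (0.295). Igf2r was close to Mcu (0.118), Gnptab (0.134), an enzyme gene of the mannose 6-phosphate tag that this receptor reads, and Retreg2 (0.134). Igf1r was nearest to Inpp4a (0.303), Pomt1 (0.303) and Ppm1d (0.307). For Igfbp4 the nearest were Jak3 (0.229), Klf5 (0.252) and the collagen gene Col18a1 (0.313). For Igfbp6 they were Dap (0.235), Mxra8 (0.252) and the stromal marker Cd248 (0.253), and for Igfbp7 Cst3 (0.170), the gene of cystatin C, Smim14 (0.190) and Clec2g (0.191). The nearest to Igfbp5 were Cds2 (0.270), Slc7a2 (0.358) and Tp53inp1 (0.360), and to Igfbp3 Insig1 (0.256), Bcl7b (0.259) and Fth1 (0.286). The scarce Igfbp2 had only distant neighbours, Rab15 (0.519), Mustn1 (0.540) and Kif3c (0.602). These distances describe 18 libraries that share the same group differences. They are not scaled to the spread of a gene, so genes that change little lie close to each other. In DMD against WT muscle the log2 difference was 0.04 for Igf2r, 0.02 for Mcu and 0.13 for Gnptab.

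Other genes of the pathway were taken from a list of 56, of which 53 had an entry (not Pappa, Foxo4 and Meg3) and 50 were tested at 9 months. In DMD against WT muscle 16 were called higher, 13 lower and 21 not, and in p16-null DMD against WT muscle 18, 12 and 20. Against the 26.4% higher and 21.8% lower over all genes in DMD muscle, the list as a whole was near the background. Scaled by library totals the counts were 28 higher and 2 lower in DMD, and 29 and 4 for p16-null DMD, so most falls in the list depend on the scaling. Library totals also moved the all-gene medians up, to 0.76 and 0.72. The shares of 26.4% and 21.8% are therefore no background for these counts. In p16-null DMD against DMD muscle 0 of 50 passed (edgeR adjusted p = 0.347 to 1).

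Around the ligands, Htra1, a secreted serine protease able to cleave IGF binding proteins, rose in DMD muscle by 1.22 ± 0.21 (adjusted p = 0.00025). Stc2, an inhibitor of pappalysins, fell by 1.11 ± 0.32 (log2, adjusted p = 0.00908), a call lost with library totals (adjusted p = 0.218) and without WT replicate 3 (adjusted p = 0.0571). In the growth hormone arm, the kinase gene Jak2 rose by 1.5 ± 0.23 (adjusted p = 0.000101), while the transcription factor gene Stat5b fell by 0.84 ± 0.16 (adjusted p = 0.000464, and 0.251 with library totals). Among other receptors Lrp1, a large endocytic receptor, went from 185 ± 15.5 to 701 ± 33.1 CPM (1.92 ± 0.17, adjusted p = 2.02e-06). Insr, the insulin receptor gene, went from 27.1 ± 1.62 to 16 ± 4.67 CPM (-0.76 ± 0.22, adjusted p = 0.0102), a call lost with library totals as well (adjusted p = 0.742).

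Of 7 adaptor genes, which link the receptors to the kinases, 2 were higher and 3 lower in DMD muscle. Over all genes tested there, 26.4% were called higher and 21.8% lower. Irs1, the insulin receptor substrate, stood at 264, 104 and 312 CPM in WT libraries and at 65.5, 56.2 and 47.5 CPM in DMD libraries, all below WT. In p16-null DMD against WT muscle its log2 fold change was -2.34 ± 0.24 (edgeR adjusted p = 3.19e-06). Grb14, an inhibitor of insulin receptor signalling, fell in DMD muscle by 1.93 ± 0.25 (adjusted p = 2.41e-05), and Shc1 rose by 0.89 ± 0.16 (adjusted p = 0.000396). Of 23 kinase pathway genes 3 were higher and 6 lower, with the mTOR inhibitor gene Deptor at -0.87 ± 0.14 (adjusted p = 0.000163). With library totals 12 of the 23 were called higher and 0 lower, and the Deptor call was lost (adjusted p = 0.213). The all-gene calls under library totals, counted above, also leaned higher, and the all-gene median was 0.76. Igf2bp2, an mRNA-binding protein that can bind Igf2 transcripts, rose by 1.67 ± 0.35 (adjusted p = 0.00116).

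The subgroup of imprinted neighbours and network genes rose as Igf2 did in dystrophic muscle. Its 6 tested genes, H19, Cdkn1c, Plagl1, Dlk1, Mest and Peg3, were all called higher than in WT in both dystrophic groups. Under TMM scaling, the share of all genes called higher was 26.4% for DMD and 27.5% for the p16-null group. The calls of the 6 genes held under RLE scaling, library totals, TPM and DESeq2. These settings reuse the same libraries, and library totals moved the all-gene medians up to 0.76 and 0.72. The pathway list was chosen with earlier results of these data known. Cdkn1c, Plagl1, Dlk1 and Peg3 were named after their values were seen. The 6 genes are not all imprinted genes measured. Grb10, listed with the adaptors, gave no call in DMD muscle (0.21 ± 0.19, adjusted p = 0.389), and neither did Igf2r, which is imprinted in rodents. H19, a non-coding RNA, rose in DMD by 1.92 ± 0.37 (adjusted p = 0.000622) and Mest by 2.49 ± 0.29 (adjusted p = 1.2e-05). Dlk1, which inhibits fat cell formation, rose by 3.64 ± 0.81 (adjusted p = 0.00177) from 0.359 ± 0.328 CPM in WT muscle. With age the same genes did not move together. H19 was higher at 18 than at 3 months, by 1.74 ± 0.23 (adjusted p = 0.000125), Mest was lower, at -1.47 ± 0.24 (adjusted p = 0.00058), 3 others gave no call, and Dlk1 was too low to be tested (0.462 ± 0.335 and 0.908 ± 0.554 CPM at 3 and 18 months).

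In the age comparison 8 of 47 tested pathway genes were called higher and 5 lower, beside 9.31% and 10.1% of all genes. Under library totals the counts were 19 and 4, and on log2(TPM + 1) they were 18 and 2. The shares of 9.31% and 10.1% come from TMM scaling and are no background for these counts. Library totals moved the all-gene median from 0.00 to 0.24. Jak2 (0.74 ± 0.14, adjusted p = 0.0016) and Lrp1 (0.82 ± 0.14, adjusted p = 0.00109) were higher in old muscle, as was Pik3r1 (0.72 ± 0.16, adjusted p = 0.00526), a regulatory subunit of PI3-kinase. Ghr, the growth hormone receptor gene, stood at 212 ± 6.94 CPM in young and 123 ± 5.07 CPM in old muscle (-0.78 ± 0.11, adjusted p = 0.00025). Irs1 was lower too, at -1.60 ± 0.30 (adjusted p = 0.0016), and so was Stc2, at -1.12 ± 0.26 (adjusted p = 0.00713). Both calls were lost on log2 TPM with a pseudocount of 1 (adjusted p = 0.0621 and 0.0935), and that of Pik3r1 in 1 fit of all 18 libraries (adjusted p = 0.0673).

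**Figure D4:**
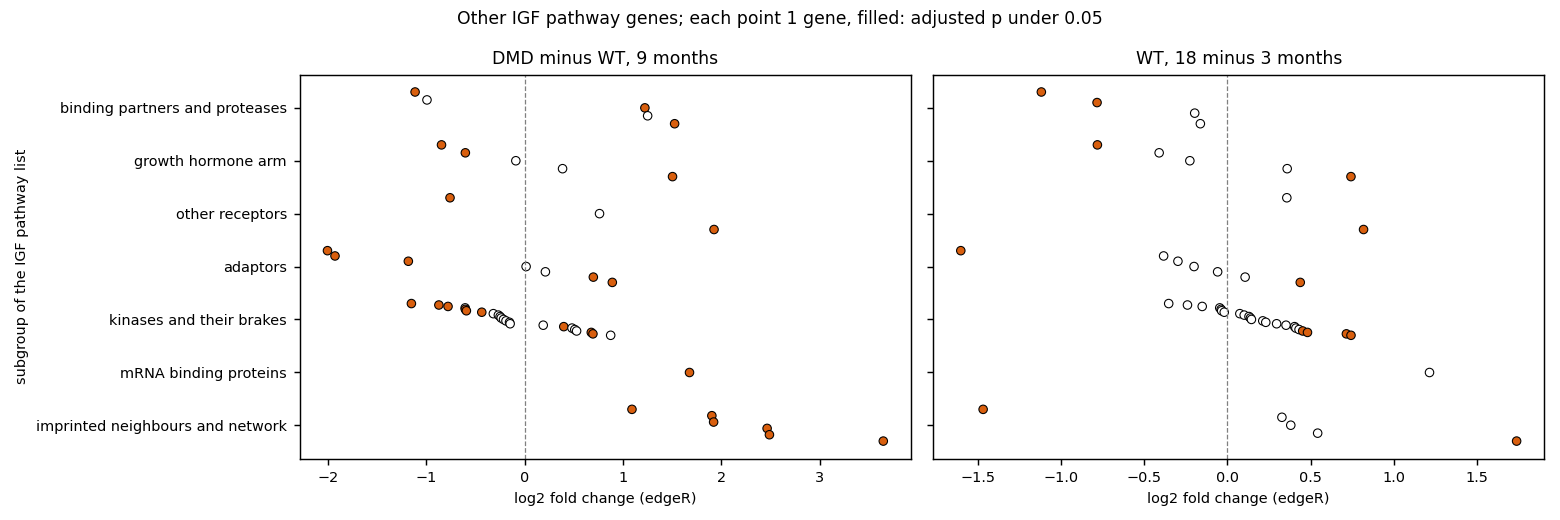
Log2 fold changes of the other IGF pathway genes by subgroup, in DMD against WT muscle and in WT of 18 against 3 months, 1 point per gene, filled where the edgeR adjusted p was under 0.05. All 6 genes of the subgroup of imprinted neighbours and network lie above 0 in DMD muscle, while adaptor and kinase genes lie on both sides.

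**Figure D5:**
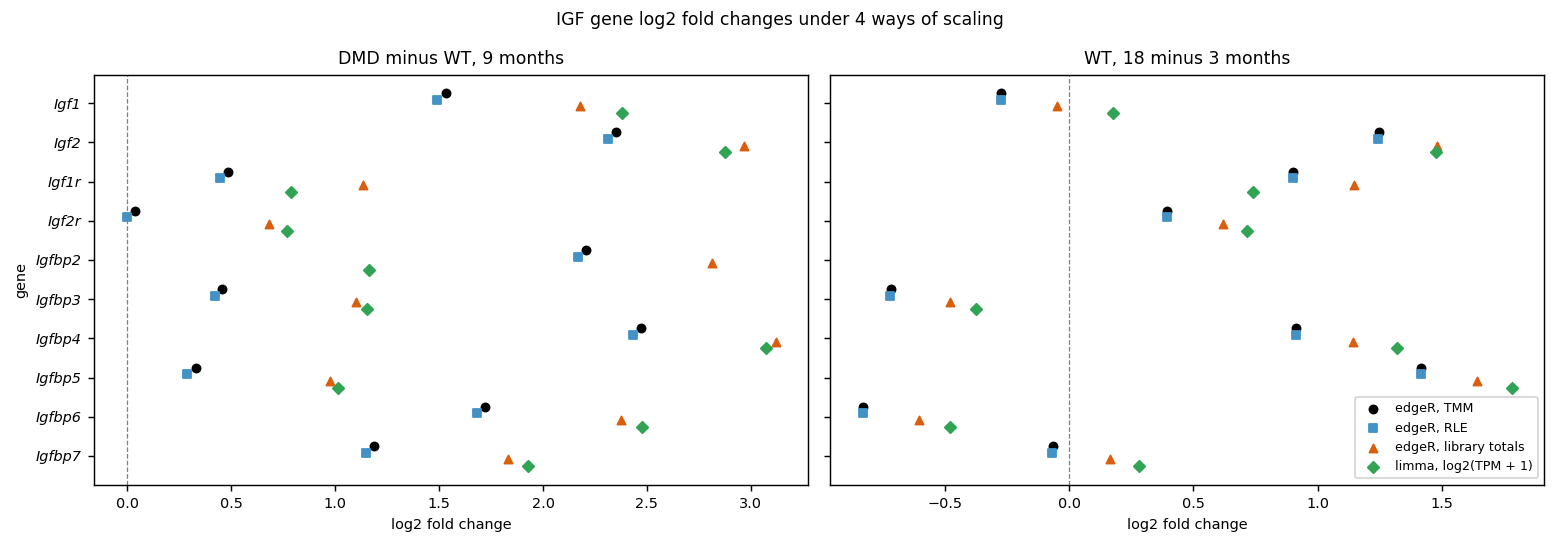
Log2 fold change (x axis) of each IGF gene in DMD against WT muscle and in WT of 18 against 3 months, with 1 symbol for each of 4 ways of scaling. In DMD muscle library totals and TPM shift the values of most genes upward, in step with the all-gene median (0.11 to 0.76 for library totals), while Igfbp4 and Igf2 stay high under each.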

How the data were processed

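The values are gene-level estimated counts (RSEM expected counts) and TPM values, both as deposited by the authors for 18 libraries of tibialis anterior RNA. The submitters' processing notes name RSEM 1.3.3, STAR 2.7.10b, FastQC, Trimmomatic and the build mRatBN7.2. Which annotation release and strand setting were used is not stated there or in the labels. Per the labels, libraries were made with a TruSeq RNA kit by BGI. Of 30560 entries 7162 had no symbol; they stayed in the fits, and 4.50% of values were not whole, so counts were rounded.

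The main test was edgeR's quasi-likelihood test (version 4.0.16, R 4.3.3) after filterByExpr and TMM scaling, with Benjamini-Hochberg adjustment over all genes tested and a threshold of 0.05. All 9-month libraries entered 1 fit, with 14801 genes (biological coefficient of variation 0.260), and WT of 3 and 18 months a separate fit with 13487 genes (0.176). TMM factors over all 18 libraries were 0.728 to 0.801 in WT of 9 months and 1.13 to 1.25 in DMD libraries, so scaling bears on directions. Levels are TMM-scaled CPM over all 18 libraries, and TPM compares genes. An SE is the absolute log2 fold change over the root of F. Intervals of count ratios are exact and cover counting error only.

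Alternatives were RLE scaling, library totals, DESeq2 1.42.0, limma 3.58.1 on log2(TPM + 1) and log2(TPM + 0.1), omission of the filter, a filter of 5 CPM in 3 libraries, 1 fit of all 18 libraries, a replicate block, and each library left out. Replicate pairs of a group differed by more than counting error (chi-square per degree of freedom 11.9 to 79.0). The fits were tested on simulated data in which few genes changed, as many up as down. That setting does not cover the dependence on scaling seen here. The 10 genes, the pathway list and the marker lists were chosen with earlier results of these data known. The text names all 10 genes and, per pathway subgroup and direction, the called gene with the smallest p, and a gene so named may be given in other comparisons. Some results that this rule calls for are left out here. Cdkn1c, Plagl1, Dlk1 and Peg3 lie outside that rule and were named after their values were seen. Sequences are from RefSeq (GRCr8). Figures used matplotlib 3.10.9, numpy 2.4.6 and pandas 2.3.3.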

Additional observations from a re-analysis of the deposited data

How the results depend on the processing

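The all-gene median log2 fold change moved from 0.11 to 0.76 (DMD against WT), 0.11 to 0.72 (p16-null DMD against WT) and 0.00 to 0.24 (18 against 3 months) when TMM was replaced by library totals. The number of the 10 IGF genes called was 10 instead of 5 in DMD against WT muscle, and 10 instead of 6 in p16-null DMD against WT muscle, under library totals, log2(TPM + 1) and log2(TPM + 0.1). Igfbp4, Igfbp6, Igfbp7, Igf1 and Igf2 stayed called and higher in both dystrophic groups against WT under all 9 alternatives and every leave-one-out fit. Igfbp2, with 0 to 43 counts per library, had the largest SE of the 10 genes in the 9-month comparisons.

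P16-null DMD against DMD muscle gave 15 genes with DESeq2, 0 with the replicate block and 1 to 85 with 1 library left out (85 without DMD replicate 1). WT of 18 against 3 months gave 1742 genes in 1 fit of all libraries and 1696 to 2415 with 1 library left out, in place of 2622.

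Signs that turned were mostly of values near 0. In DMD against WT muscle Igf2r was -0.0033 by RLE and by DESeq2. For p16-null DMD against DMD, Igf1 was 0.0078 by RLE, 0.0075 by DESeq2, 0.0024 with no filter, 0.0040 in 1 fit of 18 libraries and 0.37 with the replicate block; Igfbp2 was -0.12 and -0.35 on log2 TPM with a pseudocount of 1 and 0.1, and -0.28 with the block; Igf2 was -0.034 with the block. Igfbp3 in p16-null DMD against WT was 0.54, 0.65 and 0.67 by library totals and both TPM fits. At 18 against 3 months Igfbp7 was 0.17, 0.28 and 0.28 by these, and Igf1 was 0.18 by both TPM fits. Called falls of pathway genes turned as well under library totals and both TPM fits. Ghr in DMD against WT went from -0.60 (edgeR adjusted p = 0.0167) to 0.045, 0.25 and 0.25. In p16-null DMD against WT Insr went from -0.55 (edgeR adjusted p = 0.0232) to 0.066, 0.17 and 0.19. Deptor went there from -0.56 to 0.046, 0.18 and 0.19. The cause was not tested.

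With 1 library left out, DMD against WT ranged from -0.042 to 0.12 for Igf2r and -0.020 to 0.59 for Igfbp5. P16-null DMD against DMD ranged from -0.38 to 0.46 for Igf1, -0.15 to 0.62 for Igf2, -0.042 to 0.28 for Igf1r, -0.30 to 0.44 for Igfbp2, -0.18 to 0.43 for Igfbp5, -0.094 to 0.035 for Igfbp6 and -0.18 to 0.045 for Igfbp7. Igfbp3 in p16-null DMD against WT ranged from -0.13 to 0.0021, and Igfbp7 at 18 against 3 months from -0.18 to 0.014.

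Replicate numbers did not pair the libraries (correlations of deviations -0.20 to 0.06 over 12 pairs). With the replicate block 6476 genes and 5 of the 10 were called in DMD against WT, 6100 and 5 in p16-null DMD against WT (Igfbp2 was lost, adjusted p = 0.138), 0 and 0 against DMD, and 2906 and 6 with age. Replicates 4 to 6 exist only in the p16-null group, so the block fits each of them with a term of its own. All block values of that group, here and above, therefore rest on its replicates 1 to 3.

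Shares by CPM, which ignores transcript length, differed. Igf2 was 31.8% of ligands in WT of 3 months. Of binding proteins, Igfbp5 was 52.1, 59.5, 76.3, 39.0 and 43.4% in WT of 3, 9 and 18 months, DMD and p16-null DMD. In that order Igfbp6 was 11.3, 9.21, 3.54, 16.3 and 15.9%, and Igfbp7 was 27.7, 22.1, 14.5, 27.0 and 25.8%. Igfbp4 was 4.63 and 3.79% in WT of 9 and 18 months, Igfbp3 3.40 and 2.32% in DMD and p16-null DMD, and Igfbp2 0.0675% in WT of 18 months.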
